A study of Mus musculus with 10 samples.

Results

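The genes described here are 36 genes of glycolysis and the hypoxia response: glycolytic enzymes, glucose and lactate transporters, and the hypoxia-inducible factor Hif1a with a set of its known targets. They were taken by symbol from a list set by function, with no threshold on measured values, and all 36 were found among the 17737 genes of the table. Aldoa matched 2 identifiers, and the abundant one is used throughout. The samples were tumors of B16-F10, a mouse melanoma line, engineered to overexpress interleukin 18 (IL-18) and implanted under the skin of the right flank of C57BL/6 mice. In WT tumors the overexpressed cytokine was wild-type IL-18, and in D69A tumors it was IL-18 with alanine in place of the aspartate at position 69. IL-18 is a cytokine best known for driving interferon production by natural killer and T cells. Both groups therefore carried an overexpressed IL-18, and no tumor without one was analysed here. Each group held 5 tumors, numbered 2 to 6 for WT and 1 to 5 for D69A, all taken on day 11. The promoter of the construct, whether each line was 1 clone, and the age of the mice do not appear in the sources used here.

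Glycolysis turns glucose into pyruvate. Glucose enters through transporters, is trapped by hexokinase, and is committed by phosphofructokinase, whose activity is set in part by fructose 2,6-bisphosphate, the product of the PFKFB enzymes. Pyruvate is then reduced to lactate by lactate dehydrogenase and exported with protons, or enters mitochondria through pyruvate dehydrogenase, which the PDK kinases inhibit. When oxygen is short, prolyl hydroxylases stop marking HIF-1α for degradation, and the stabilised factor binds hypoxia response elements near its target genes. HIF-1α is regulated mainly as a protein, which RNA counts do not measure.

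Total counts ranged from 25904345 to 37578722 per tumor, with the lowest in WT tumor 6. The 36 genes took between 2.0% of the counts (WT tumor 4) and 3.25% (WT tumor 5). All 7 melanoma markers were detected in every tumor, and their summed level was 16050 to 19820 CPM (counts scaled to a common library size) in WT tumors and 23500 to 30090 CPM in D69A tumors. All 5 leukocyte markers, all 6 fibroblast markers, all 6 endothelial markers and 6 of 8 macrophage markers were lower in D69A tumors (edgeR, adjusted p under 0.05). The sums, WT against D69A, were 352 to 950.2 against 100.5 to 245 CPM for leukocytes, 2177 to 5762 against 345 to 1303 CPM for fibroblasts, 88.8 to 145 against 48.5 to 77.3 CPM for endothelium and 559 to 1272 against 371 to 563 CPM for macrophages. The 16 skeletal muscle markers summed to 21.3 to 2153 CPM in WT and 17.5 to 729 CPM in D69A tumors, with a lowest edgeR adjusted p of 0.0753 (Ryr1). WT tumor 4 (2153 CPM), WT tumor 3 (1434 CPM) and D69A tumor 1 (729 CPM) were highest in them. These are whole-tissue levels, in which fewer cells of a type and less RNA per cell cannot be told apart. The part of the cell mixture in the results below was not tested.

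Upstream sequences of 6 of the genes are shown because they differ in the letters that HIF-1 is known to recognise. The core of a hypoxia response element was searched as ACGTG or GCGTG on both strands (CACGT and CACGC on the printed strand) in RefSeq promoter windows of mouse build GRCm38.p6, each 250 bases before to 50 bases after the most upstream of the starts that the RefSeq table lists for the gene. The GENCODE gene can begin further upstream, as for Hif1a, Ldha and P4ha2, whose windows lie inside it. Each line gives the 250 bases before the start, 5′ to 3′ on the gene's strand, with the cores in capitals. The palindrome CACGTG matches ACGTG on both strands.
Hif1a, chr12:73907617-73907866, plus strand: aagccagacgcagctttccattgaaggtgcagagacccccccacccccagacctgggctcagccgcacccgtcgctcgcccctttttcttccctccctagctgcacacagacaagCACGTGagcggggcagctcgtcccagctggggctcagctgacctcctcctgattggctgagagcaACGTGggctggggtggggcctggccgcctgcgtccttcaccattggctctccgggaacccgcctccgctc
Ldha, chr7:46845554-46845803, plus strand: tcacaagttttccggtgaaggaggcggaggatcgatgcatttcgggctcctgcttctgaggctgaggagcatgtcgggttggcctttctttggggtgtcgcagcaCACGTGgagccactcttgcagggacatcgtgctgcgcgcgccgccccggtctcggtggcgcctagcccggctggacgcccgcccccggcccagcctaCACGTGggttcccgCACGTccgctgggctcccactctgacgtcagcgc
Ldhb, chr6:142507958-142508207, minus strand: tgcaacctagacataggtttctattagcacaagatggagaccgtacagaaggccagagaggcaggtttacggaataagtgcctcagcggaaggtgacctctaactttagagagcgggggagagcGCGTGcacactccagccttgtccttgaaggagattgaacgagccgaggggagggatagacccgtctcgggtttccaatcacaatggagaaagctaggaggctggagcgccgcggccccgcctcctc
Slc16a1, chr3:104638414-104638663, plus strand: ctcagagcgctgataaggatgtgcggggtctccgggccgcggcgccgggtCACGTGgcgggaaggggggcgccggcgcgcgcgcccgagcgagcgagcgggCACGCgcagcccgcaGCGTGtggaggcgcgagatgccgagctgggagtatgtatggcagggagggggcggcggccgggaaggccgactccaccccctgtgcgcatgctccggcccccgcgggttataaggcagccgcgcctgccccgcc
Pgk1, chrX:106186850-106187099, plus strand: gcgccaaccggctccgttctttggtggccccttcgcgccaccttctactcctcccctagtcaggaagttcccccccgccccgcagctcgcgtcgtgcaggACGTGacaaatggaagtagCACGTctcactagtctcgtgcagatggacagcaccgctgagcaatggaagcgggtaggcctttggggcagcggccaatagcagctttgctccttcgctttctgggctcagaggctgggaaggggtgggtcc
P4ha2, chr11:54100674-54100923, plus strand: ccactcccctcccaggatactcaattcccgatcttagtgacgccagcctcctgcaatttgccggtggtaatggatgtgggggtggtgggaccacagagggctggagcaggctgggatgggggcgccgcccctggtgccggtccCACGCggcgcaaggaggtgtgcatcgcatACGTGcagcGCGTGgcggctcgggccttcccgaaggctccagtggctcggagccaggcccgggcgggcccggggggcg
The upstream stretch of Ldha, which codes for the muscle-type lactate dehydrogenase subunit, held 3 separate runs of core letters. That of Ldhb, which codes for the heart-type subunit, held 1, a GCGTG, and no ACGTG in its window.

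Windows were found for 33 of the 36 genes, all but Slc2a3, Bnip3l and Ndrg1. ACGTG occurred in 20 of the 33 windows (60.6%), against 19.6% of 27025 mouse genes with a window and 25.1% of the 10754 such genes that were tested here. GCGTG occurred in 18 (54.5%), against 32.5% of all and 50.2% of tested genes. The genes were listed in part as known HIF targets, so the surplus of ACGTG describes the list. On the RNA side, the 20 genes with ACGTG had a median log2 difference (D69A minus WT) of 0.09 and the 13 without it one of 0.24. Of the genes with ACGTG 4 were higher and 2 lower in D69A tumors (edgeR, adjusted p under 0.05), and of those without it 2 were higher and 2 lower. Over all tested genes 18.8% were higher and 24.7% lower. The counts by motif are small, and a link between the motif and the RNA differences was not tested. A match is a run of letters and not a measured binding site.

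The genes did not move as a block between D69A and WT tumors. Of the 36, 6 were higher in D69A tumors (Ldhb, Hif1a, Pgk1, Slc16a1, Eno1 and Mif), 4 were lower (Pfkfb3, P4ha2, Pfkfb4 and Eno2) and 26 did not pass an adjusted p of 0.05 (edgeR's quasi-likelihood test, adjusted over all 13798 genes tested). All 36 passed the filter on low counts. Over all tested genes 43.5% passed, 18.8% higher and 24.7% lower in D69A tumors. The 10 genes called here are 27.8% of the 36, below the share over all tested genes. The 16.7% that were higher are near the share of all tested genes, and the 11.1% that were lower are below it. The higher count rests on WT tumor 5. Without it 17 of the 36 were higher and 3 lower, where 20.5% of all tested genes were higher and 21.1% lower. Their median log2 fold change was 0.18 and 24 of the 36 values were positive, beside a median of 0.00 over all tested genes. The median size of the difference was 0.26 on the log2 scale, close to the 0.23 of all genes.

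**Figure D1:**
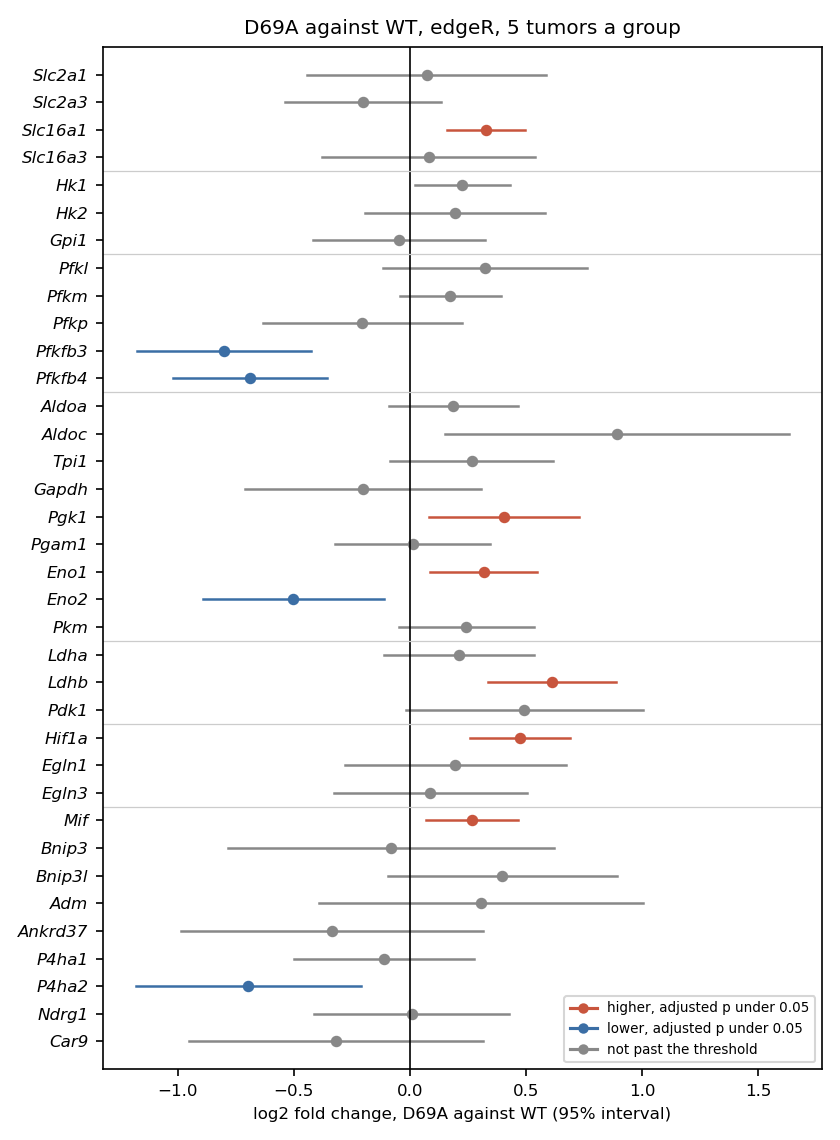
Log2 fold change of D69A against WT tumors for the 36 genes, grouped by role, with 95% intervals from edgeR (5 tumors a group); red and blue points passed an adjusted p of 0.05. The 6 higher and 4 lower genes come from different steps of the pathway, and most intervals of the other 26 genes cross 0.

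For the 26 genes that did not pass, log2 fold changes lay between -0.34 (Ankrd37) and 0.89 (Aldoc), and 2 had an unadjusted p under 0.05 (Hk1 and Aldoc). In 23 of them the 95% interval lay within 1 log2 unit of 0 on either side. The test was checked on simulated counts with these library sizes, where it found 50% of the genes altered 1.5-fold and 80% of those altered 2-fold, but 10% of those given the smallest change simulated, under 1.5-fold. These shares are over all genes, while the members varied more between tumors than the tested genes as a whole. In that check 200 of 13798 genes were changed, while 43.5% of the tested genes passed here. The adjusted p depends on how many genes change, so these shares do not carry over to the 26 genes. What share of such changes the test finds in the present data was not tested.

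The spread between tumors of a group was wide for these genes. Their median coefficient of variation was 27.6% in WT tumors, beside 12.9% over all tested genes, and 33 of the 36 lay above that 12.9%. In D69A tumors it was 15.7% beside 9.40%. The spread was shared between the genes: WT tumor 5 was the highest WT tumor for 33 of 36 genes, and D69A tumor 3 was the highest D69A tumor for 34. At the low end, WT tumor 4 was the lowest WT tumor for 20 genes and WT tumor 2 for 12, and D69A tumor 1 was the lowest D69A tumor for 30. Across all 10 tumors the highest value of every gene was in WT tumor 5 (19 genes) or D69A tumor 3 (17 genes). The genes are not independent of each other, so these counts describe a few tumors and not 36 separate observations.

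WT tumor 5 stood at a median of 1.61 times the median of the other WT tumors, from 0.76 (Ldhb) to 2.40, and above it for 35 of 36 genes. The same ratio over all tested genes was 1.01. D69A tumor 1 stood at a median of 0.77 times the other D69A tumors, from 0.34 (Aldoc) to 1.13, and below them for 35 genes, against 1.0 over all tested genes. WT tumor 5 also had the highest summed fibroblast markers (5762 CPM) and the lowest melanoma markers (16050 CPM) of the WT tumors. D69A tumor 1 had the highest leukocyte, fibroblast, endothelial and muscle marker sums of the D69A tumors, and the lowest melanoma sum (23500 CPM). D69A tumor 3, the highest D69A tumor for most genes, had the highest melanoma sum (30090 CPM) and the lowest leukocyte sum (100.5 CPM) of all 10 tumors. The part of these cell types in the levels was not tested.

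**Figure D2:**
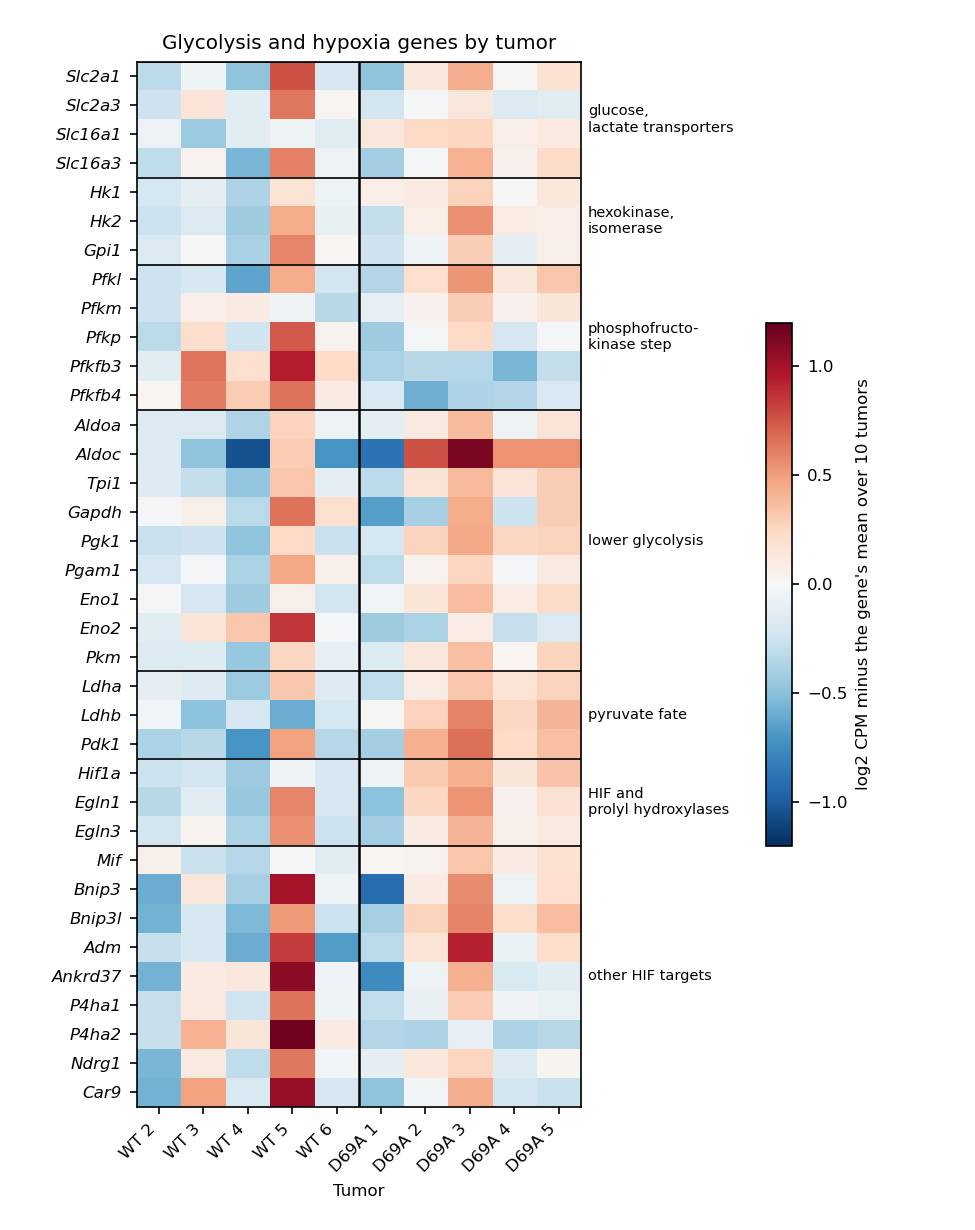
Heat map of log2 CPM of each gene minus its mean over the 10 tumors (columns), with genes grouped by role (rows); red is above and blue below the gene's mean. WT tumor 5 and D69A tumor 3 are red in most rows, and WT tumor 4 and D69A tumor 1 are blue in most. The Ldhb, Pfkfb3, Pfkfb4 and Slc16a1 rows are among those that depart from this.

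Means below are given ± SD over the 5 tumors of a group. Among the transporters, only the lactate and pyruvate carrier Slc16a1 (MCT1; ENSMUSG00000032902, chromosome 3, 104638668 to 104658462 in mm10) passed the test. It stood at 155, 119, 148, 157 and 147 CPM in WT tumors 2 to 6 and at 178, 191, 194, 171 and 175 CPM in D69A tumors 1 to 5. Every D69A tumor lay above every WT tumor, a pattern shown in the upward direction by 12.0% of all tested genes. Means were 145 ± 15.3 CPM over the WT and 182 ± 9.96 CPM over the D69A tumors, a log2 fold change of 0.33 (SE 0.08, edgeR adjusted p = 0.00607). Slc16a3 (MCT4), the carrier usually linked to lactate export from glycolytic cells, stood at 100.3, 128, 84.9, 189 and 119 CPM in WT tumors 2 to 6 and at 93.8, 123, 166, 129 and 145 CPM in D69A tumors 1 to 5. Its groups overlapped, and the log2 fold change of 0.08 had a 95% interval of -0.38 to 0.54.

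Slc2a1 (GLUT1), the widespread glucose transporter, read 166, 198, 147, 349 and 179 CPM in WT tumors 2 to 6 and 148, 226, 278, 208 and 234 CPM in D69A tumors 1 to 5. WT tumor 5 was the highest of all 10, and the other WT tumors lay at or below 198 CPM. D69A differed from WT by 0.07 on the log2 scale (95% interval -0.44 to 0.59, edgeR adjusted p = 0.824). Slc2a3 (GLUT3), a transporter of high affinity, averaged 34.7 ± 8.96 CPM over the WT and 30.2 ± 3.14 CPM over the D69A tumors and did not pass (adjusted p = 0.308). Per exon length it made up 5.63% to 8.74% of the Slc2a1 and Slc2a3 sum in the 10 tumors.

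The genes of the first glycolytic steps did not pass with edgeR. Hk1, the constitutive hexokinase, averaged 368 ± 50.9 CPM over the WT and 430.3 ± 31.6 CPM over the D69A tumors, with a log2 fold change of 0.23 and an edgeR adjusted p of 0.0694. DESeq2 called it higher (adjusted p = 0.0462). Hk2, the inducible and HIF-responsive hexokinase, stood at 322, 342, 287, 526 and 362 CPM in WT tumors 2 to 6 and at 317, 407, 563, 409 and 408 CPM in D69A tumors 1 to 5. The groups overlapped over most of their range (log2 fold change 0.20, adjusted p = 0.394). Gpi1, the isomerase of the next step, averaged 1423 ± 384 CPM over the WT and 1378 ± 200.5 CPM over the D69A tumors (log2 fold change -0.05), and 11.5% of its exon length lies opposite another annotated gene.

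At the phosphofructokinase step the regulatory genes Pfkfb3 and Pfkfb4 fell, while the genes of phosphofructokinase itself did not pass. Pfkfb3 (ENSMUSG00000026773, chromosome 2, 11471433 to 11554077 in mm10), the PFKFB form with the strongest kinase over phosphatase activity, stood at 55.0, 94.5, 69.8, 116 and 71.8 CPM in WT tumors 2 to 6 and at 46.7, 48.2, 47.8, 41.5 and 49.8 CPM in D69A tumors 1 to 5. All D69A tumors lay below all WT tumors, as in 17.4% of all tested genes, and the D69A values spanned under 10 CPM. Its log2 fold change was -0.80 (SE 0.17, edgeR adjusted p = 0.00375), the lowest of the 36, from means of 81.5 ± 24.1 CPM over the WT and 46.8 ± 3.14 CPM over the D69A tumors. Within the WT group, tumors 5 and 3 were highest, the same tumors that led in fibroblast and leukocyte markers. Whether the host cells of these tumors took part in the Pfkfb3 level was not tested.

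Pfkfb4 (ENSMUSG00000025648, chromosome 9, 108991778 to 109032228 in mm10), a second PFKFB enzyme known as a HIF target, stood at 7.98, 12.0, 9.72, 12.4 and 8.41 CPM in WT tumors 2 to 6 and at 6.92, 5.23, 6.10, 6.18 and 6.92 CPM in D69A tumors 1 to 5. Its groups did not overlap either, and WT tumors 5 and 3 were again highest. Means were 10.1 ± 2.02 CPM over the WT and 6.27 ± 0.700 CPM over the D69A tumors and the log2 fold change -0.69 (SE 0.15, edgeR adjusted p = 0.00428). Pfkfb3 and Pfkfb4 fell by similar amounts, and Pfkfb4 remained 14.1% to 18.8% of their per-length sum in every tumor. The remaining PFKFB genes, looked up after the values were seen, did not pass: Pfkfb2 averaged 29.4 ± 1.82 CPM over the WT and 31.1 ± 1.46 CPM over the D69A tumors (log2 fold change 0.08, adjusted p = 0.309) and Pfkfb1 4.76 ± 0.657 CPM over the WT and 4.38 ± 0.409 CPM over the D69A tumors (log2 fold change -0.12, adjusted p = 0.519).

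The phosphofructokinase isoforms differed in how they were balanced. Pfkl, the liver-type form, averaged 398 ± 116 CPM over the WT and 499 ± 106 CPM over the D69A tumors (log2 fold change 0.33, adjusted p = 0.209). Pfkp, the platelet-type form, averaged 675 ± 213 CPM over the WT and 586 ± 99.4 CPM over the D69A tumors (log2 fold change -0.20, adjusted p = 0.416). Pfkm, the muscle-type form, was the lowest per length and averaged 81.7 ± 10.8 CPM over the WT and 92.2 ± 9.44 CPM over the D69A tumors (adjusted p = 0.177). Without the 3 tumors highest in muscle markers Pfkm was called higher in D69A tumors (log2 fold change 0.35, adjusted p = 0.0254). The isoform shares are given below.

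In lower glycolysis Pgk1 and Eno1 rose and Eno2 fell. Pgk1 (ENSMUSG00000062070, chromosome X, 106187100 to 106203699 in mm10), the kinase of the first ATP-forming step, stood at 1811, 1825, 1554, 2564 and 1811 CPM in WT tumors 2 to 6 and at 1877, 2623, 2972, 2582 and 2619 CPM in D69A tumors 1 to 5. D69A tumors 2 to 5 lay above all WT tumors, although WT tumor 5 was within 20 CPM of D69A tumor 4, and D69A tumor 1 lay inside the WT range. For Pgk1 the log2 fold change was 0.41 (SE 0.15, edgeR adjusted p = 0.0432). The call was lost when any of WT tumors 2, 3, 4 or 6 or D69A tumors 2 to 5 was left out, with adjusted p-values of 0.0713, 0.0838, 0.0902 and 0.0782 for the WT and 0.0796, 0.0624, 0.0738 and 0.0798 for the D69A tumors. With upper quartile scaling it was 0.0534.

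Eno1 (ENSMUSG00000063524, chromosome 4, 150236721 to 150248879 in mm10), the ubiquitous enolase, stood at 2241, 1966, 1685, 2382 and 1927 CPM in WT tumors 2 to 6 and at 2219, 2507, 2927, 2405 and 2663 CPM in D69A tumors 1 to 5. D69A tumor 1 lay inside the WT range and the other D69A tumors above it, and the log2 fold change was 0.32 (SE 0.10, edgeR adjusted p = 0.0297). Reads of Eno1 can be shared with Eno1b, a near-identical gene that is also in the table and was higher as well (log2 fold change 0.39, adjusted p = 0.0087), so the split between them is uncertain. Without WT tumor 3, 4 or 6 the Eno1 adjusted p was 0.0626, 0.0575 and 0.0584, and without D69A tumor 2 or 5 it was 0.0501 and 0.0636.

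Eno2 (ENSMUSG00000004267, chromosome 6, 124760053 to 124769673 in mm10), the enolase first described in neurons and also HIF-responsive, stood at 95.1, 116, 131, 189 and 103 CPM in WT tumors 2 to 6 and at 77.7, 80.3, 111, 86.3 and 92.5 CPM in D69A tumors 1 to 5. WT tumor 5 was far above the rest, and D69A tumor 3 reached into the WT range. The log2 fold change was -0.50 (SE 0.18, edgeR adjusted p = 0.0394). Without WT tumor 5 it was -0.28 with an adjusted p of 0.0775. The adjusted p was also above 0.05 without WT tumor 3 or 4 (0.0578 and 0.0747) and without D69A tumor 1, 2, 4 or 5 (0.0814, 0.0883, 0.0848 and 0.0676).

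Aldoc, the brain-type aldolase, had the largest log2 fold change of the 36 and the widest interval. It stood at 29.5, 23.7, 16.1, 40.7 and 20.3 CPM in WT tumors 2 to 6 and at 17.9, 56.2, 72.3, 48.1 and 48.1 CPM in D69A tumors 1 to 5. D69A tumors 2 to 5 exceeded every WT tumor, while D69A tumor 1 was lower than all but 1 of them. The log2 fold change of 0.89 (95% interval 0.15 to 1.64) just missed the threshold with edgeR (adjusted p = 0.0511) and passed with DESeq2 (adjusted p = 0.0132). Without D69A tumor 1 it was 1.12 (adjusted p = 0.00423).

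The other lower glycolysis genes, all highly expressed, did not pass. Aldoa, the main aldolase, averaged 2756 ± 474 CPM over the WT and 3140 ± 426 CPM over the D69A tumors, Tpi1, which interconverts the triose phosphates, averaged 2773 ± 610.0 CPM over the WT and 3337 ± 568 CPM over the D69A tumors, and Pkm, the pyruvate kinase of most tumors, averaged 3161 ± 559.8 CPM over the WT and 3743 ± 524 CPM over the D69A tumors. Their log2 fold changes were 0.19, 0.27 and 0.24 with adjusted p-values of 0.251, 0.199 and 0.159. The table does not separate the splice forms of Pkm. Pgam1, the mutase before enolase, averaged 1180 ± 272 CPM over the WT and 1190 ± 164 CPM over the D69A tumors (log2 fold change 0.01, 95% interval -0.32 to 0.34).

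Gapdh, often used as a reference gene, varied more than 2-fold between tumors: it stood at 1054, 1116, 848, 1670 and 1211 CPM in WT tumors 2 to 6 and at 672, 809, 1451, 887 and 1308 CPM in D69A tumors 1 to 5. D69A tumors 1, 2 and 4 were, with WT tumor 4, the lowest and WT tumor 5 and D69A tumor 3 the highest, and the difference did not pass (log2 fold change -0.20, adjusted p = 0.502). Gapdh has 92 annotated near-identical copies in the genome, 3 of them in the table, so its count can depend on how reads with many matches were assigned.

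On a per-length scale (CPM per kilobase of all annotated exons together), Tpi1 ranked highest, with 1007 in WT and 1212 in D69A tumors. Aldoa (947 in WT and 1079 in D69A), Pgk1 (852 in WT and 1130 in D69A) and Ldha (800.4 in WT and 927 in D69A) followed. Pfkfb4 ranked lowest, with 2.07 in WT and 1.29 in D69A. This order depends on the annotated lengths, such as 2753 bases for Tpi1 and 5001 bases for Pkm. By CPM alone Pkm (3161 in WT and 3743 in D69A) stood above Tpi1 (2773 in WT and 3337 in D69A).

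For the fate of pyruvate, Ldhb rose and Ldha and Pdk1 did not pass. Ldhb (ENSMUSG00000030246, chromosome 6, 142490249 to 142507957 in mm10), the subunit that favours lactate oxidation in textbook accounts, stood at 267, 194, 237, 180.0 and 235 CPM in WT tumors 2 to 6 and at 276, 330.0, 412, 323 and 361 CPM in D69A tumors 1 to 5. The groups did not overlap. WT tumor 5, highest for most genes, was the lowest of all tumors here. Means were 223 ± 35.2 CPM over the WT and 340.4 ± 50.2 CPM over the D69A tumors, with a log2 fold change of 0.61 (SE 0.13, edgeR adjusted p = 0.00299).

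Ldha, the HIF-induced subunit, stood at 2591, 2535, 2069, 3517 and 2534 CPM in WT tumors 2 to 6 and at 2291, 2989, 3516, 3164 and 3388 CPM in D69A tumors 1 to 5. WT tumor 5 and D69A tumor 3 were almost level at the top. Ldha had a log2 fold change of 0.21 (95% interval -0.11 to 0.54, adjusted p = 0.266). Pdk1, the HIF-induced kinase that shuts pyruvate dehydrogenase, stood at 110.0, 114, 88.2, 201 and 114 CPM in WT tumors 2 to 6 and at 108, 193, 226, 170.0 and 184 CPM in D69A tumors 1 to 5. Except for D69A tumor 1 every D69A tumor lay above WT tumors 2, 3, 4 and 6, but WT tumor 5 lay among them. Its log2 fold change was 0.49 (95% interval -0.02 to 1.004, adjusted p = 0.108).

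Hif1a itself rose and the prolyl hydroxylases did not pass. Hif1a (ENSMUSG00000021109, chromosome 12, 73901375 to 73947530 in mm10) stood at 342, 348, 301, 394 and 355 CPM in WT tumors 2 to 6 and at 391, 509, 549, 452 and 519 CPM in D69A tumors 1 to 5. The groups overlapped only by D69A tumor 1, which was below WT tumor 5. Means were 348 ± 33.2 CPM over the WT and 484 ± 62.6 CPM over the D69A tumors, with a log2 fold change of 0.47 (SE 0.10, edgeR adjusted p = 0.00308). Egln1 (PHD2), the main oxygen-sensing hydroxylase, stood at 147, 169.5, 135, 277 and 162 CPM in WT tumors 2 to 6 and at 132, 219, 269, 192 and 208 CPM in D69A tumors 1 to 5. WT tumor 5 was the highest of all tumors (log2 fold change 0.20, adjusted p = 0.487). Egln3 (PHD3), a hydroxylase that is itself HIF-induced, averaged 38.1 ± 10.8 CPM over the WT and 40.5 ± 7.88 CPM over the D69A tumors (log2 fold change 0.09, adjusted p = 0.729).

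Of the 9 further genes listed as HIF targets, Mif rose and P4ha2 fell. Mif (ENSMUSG00000033307, chromosome 10, 75859353 to 75860240 in mm10), a cytokine made by melanoma cells among others, stood at 524, 418, 397, 501 and 458 CPM in WT tumors 2 to 6 and at 509, 516, 633, 537 and 569.7 CPM in D69A tumors 1 to 5. WT tumor 2 lay inside the D69A range and the other WT tumors below it (log2 fold change 0.27, SE 0.09, edgeR adjusted p = 0.0331). The adjusted p was 0.0743, 0.0658 and 0.0549 without WT tumor 3, 4 or 6, 0.0501 and 0.0677 without D69A tumor 3 or 5, 0.0562 with upper quartile scaling and 0.0537 with scaling to library size only.

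P4ha2 (ENSMUSG00000018906, chromosome 11, 54100095 to 54131665 in mm10), which codes for a catalytic subunit of collagen prolyl hydroxylase, stood at 50.3, 81.5, 67.6, 136 and 65.3 CPM in WT tumors 2 to 6 and at 47.7, 47.2, 57.1, 47.2 and 48.4 CPM in D69A tumors 1 to 5. The D69A values lay within 10 CPM of each other, and WT tumor 5 was more than 2-fold above WT tumors 2, 4 and 6. The log2 fold change was -0.69 (SE 0.22, edgeR adjusted p = 0.0259) and was -0.38 without WT tumor 5 (adjusted p = 0.0215). Without WT tumor 3 the adjusted p was 0.0519, and without D69A tumor 2, 4 or 5 it was 0.0562, 0.059 and 0.0539. The fibroblast markers, from cells known for making collagen, were lower in D69A tumors and highest in WT tumor 5, and their part in the P4ha2 level was not tested. P4ha1, another gene for this catalytic subunit, averaged 146 ± 42.3 CPM over the WT and 136 ± 21.5 CPM over the D69A tumors (log2 fold change -0.11, adjusted p = 0.639).

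The mitophagy receptors Bnip3 and Bnip3l did not pass. Bnip3 stood at 311, 518, 356, 939 and 455 CPM in WT tumors 2 to 6 and at 249.9, 502, 698, 451 and 540.1 CPM in D69A tumors 1 to 5. The value of WT tumor 5 was about 3-fold that of WT tumor 2, and D69A tumor 1 was the lowest of all. Bnip3l averaged 196 ± 66.7 CPM over the WT and 258 ± 60.2 CPM over the D69A tumors (log2 fold change 0.40, adjusted p = 0.172), against -0.08 for Bnip3 (adjusted p = 0.861). Of the exon length of Bnip3, 22.3% lies opposite an annotated antisense gene.

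Car9, a carbonic anhydrase widely used as a hypoxia marker, stood at 54.1, 112, 70.5, 165 and 69.8 CPM in WT tumors 2 to 6 and at 57.4, 78.4, 108, 68.5 and 66.3 CPM in D69A tumors 1 to 5. WT tumor 5 was highest and WT tumor 3 second, and the log2 fold change was -0.32 (95% interval -0.95 to 0.32, adjusted p = 0.395). Adm, which codes for the vasodilator peptide adrenomedullin, was low in all tumors but WT tumor 5 (13.9 CPM) and D69A tumor 3 (14.8 CPM), with means of 7.44 ± 3.70 CPM over the WT and 9.21 ± 3.32 CPM over the D69A tumors (adjusted p = 0.457). Ankrd37, a hypoxia-induced ankyrin repeat gene, averaged 8.42 ± 3.85 CPM over the WT and 6.68 ± 1.92 CPM over the D69A tumors (adjusted p = 0.379), and 26.4% of its exon length lies opposite other genes. Ndrg1, a stress-responsive gene, averaged 246 ± 80.8 CPM over the WT and 248 ± 29.8 CPM over the D69A tumors (log2 fold change 0.01, 95% interval -0.41 to 0.43). For all of these genes the difference between the groups was within the spread between tumors.

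**Figure D3:**
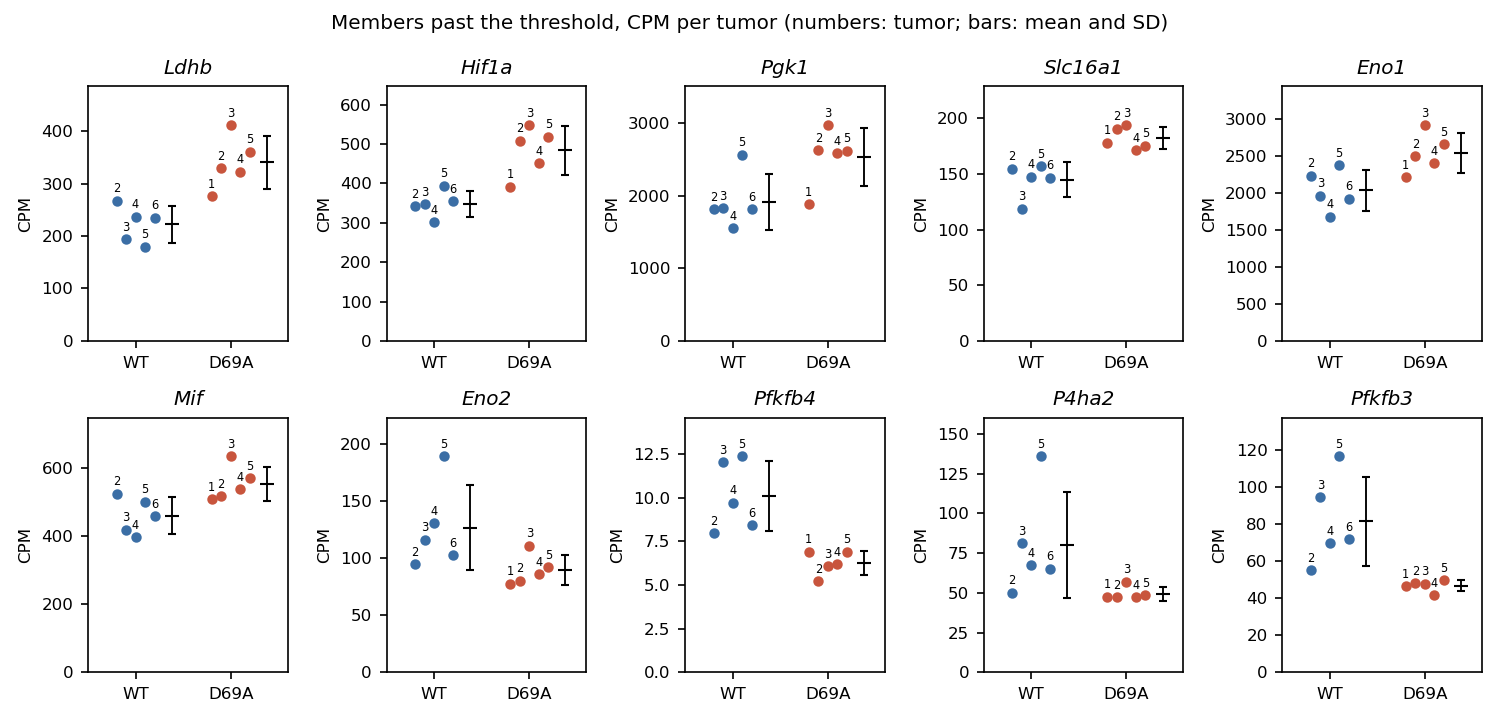
CPM of the 10 genes that passed the test in each tumor (points, numbered by tumor; axes start at 0), with the mean and SD of each group. Ldhb, Slc16a1, Pfkfb3 and Pfkfb4 show groups that do not overlap, and WT tumor 5 is the highest WT point in all panels but Ldhb and Mif.

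Shares among related members compare genes inside a tumor and do not depend on how libraries are scaled. Of 13 shares, computed from counts per exon length, 4 differed between the groups, each with no overlap and p = 0.00794, the smallest that a two-sided exact permutation test of 5 against 5 can give (Benjamini-Hochberg adjusted p = 0.0258 over the 13). Pfkp took 32.3, 38.5, 35.8, 40.1 and 38.3% in WT tumors 2 to 6 and 31.3, 30.9, 30.1, 28.8 and 28.9% in D69A tumors 1 to 5 of the sum of Pfkl, Pfkm and Pfkp. The means were 37.0 ± 3.05% and 30.0 ± 1.11%, and every D69A tumor lay below every WT tumor. The liver-type share was 44.1 ± 3.94% and 50.9 ± 2.47%, with overlap at D69A tumor 1 and an exact permutation adjusted p of 0.0619, and the muscle-type share was 18.9 ± 4.53% and 19.1 ± 1.77%.

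The share of Eno2 in the sum of Eno1 and Eno2 was 4.63, 6.34, 8.14, 8.33 and 5.75% in WT tumors 2 to 6 and 3.85, 3.53, 4.16, 3.94 and 3.82% in D69A tumors 1 to 5. It was lower and more even in D69A tumors, with means of 6.64 ± 1.58% and 3.86 ± 0.230%. This sum holds neither Eno3 (group means 96.2 and 99.8 CPM, WT first) nor Eno1b (141 and 185 CPM). The share of P4ha2 in the sum of P4ha1 and P4ha2 was 22.5, 26.4, 27.6, 29.2 and 24.5% in WT tumors 2 to 6 and 21.9, 19.3, 18.1, 18.8 and 19.7% in D69A tumors 1 to 5, with means of 26.03 ± 2.61% and 19.6 ± 1.44%. Eno2 and P4ha2 also fell in level.

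The share of Bnip3l in the sum of Bnip3 and Bnip3l rose from 18.9 ± 2.07% in WT to 24.3 ± 2.30% in D69A tumors although neither gene passed by itself. It was 21.7, 17.8, 19.8, 16.2 and 19.0% in WT tumors 2 to 6 and 27.9, 23.5, 21.8, 24.7 and 23.5% in D69A tumors 1 to 5. D69A tumor 1 was highest and WT tumor 5 lowest. The annotated antisense gene over Bnip3 leaves the level of this share uncertain, as does Eno1b for the Eno2 share. The level of the Pfkp share is uncertain too, since Pitrm1 lies opposite 5.6% of the Pfkp exon length. It also depends on the annotated exon lengths of 13401 bases for Pfkp, 6675 for Pfkl and 3340 for Pfkm. By CPM Pfkp had the highest mean of these isoforms in both groups. Without division by exon length the Pfkp share still differed, by -8.16 points (exact permutation adjusted p = 0.0258).

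Leaving out any of D69A tumors 2 to 5 raised the exact permutation adjusted p of all 4 shares to 0.0516. A permutation test of so few tumors has p-values in wide steps, and the groups still did not overlap in these fits. The differences moved little: the Pfkp share differed by -6.74 to -7.25 points (-7.03 with all tumors) and the P4ha2 share by -6.11 to -6.51 points (-6.48 with all). Without any 1 of the WT tumors the Pfkp, Eno2 and P4ha2 shares kept values of 0.0258 to 0.0344, and all 4 stood at 0.0295 without D69A tumor 1. The Bnip3l share also stood at 0.0516 without WT tumor 3, 5 or 6. Without D69A tumor 1 the shares of Slc2a3, Pfkl and Aldoc passed as well (exact permutation adjusted p = 0.0295 each).

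Ldhb made up 17.9, 13.9, 19.4, 9.74 and 16.4% in WT tumors 2 to 6 and 20.3, 18.9, 19.8, 17.7 and 18.4% in D69A tumors 1 to 5 of the sum of Ldha and Ldhb. WT tumor 5 was lowest, with WT tumors 4 and 2 inside the D69A range, and the means of 15.5 ± 3.79% and 19.0 ± 1.04% did not pass (exact permutation adjusted p = 0.118). Without WT tumor 4 it passed (exact permutation adjusted p = 0.0413). The other shares that did not pass were Slc2a3, Hk2, Pfkfb4, Aldoc, Slc16a3 and Egln3, with exact permutation adjusted p-values from 0.118 (Aldoc) to 0.897 (Hk2).

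**Figure D4:**
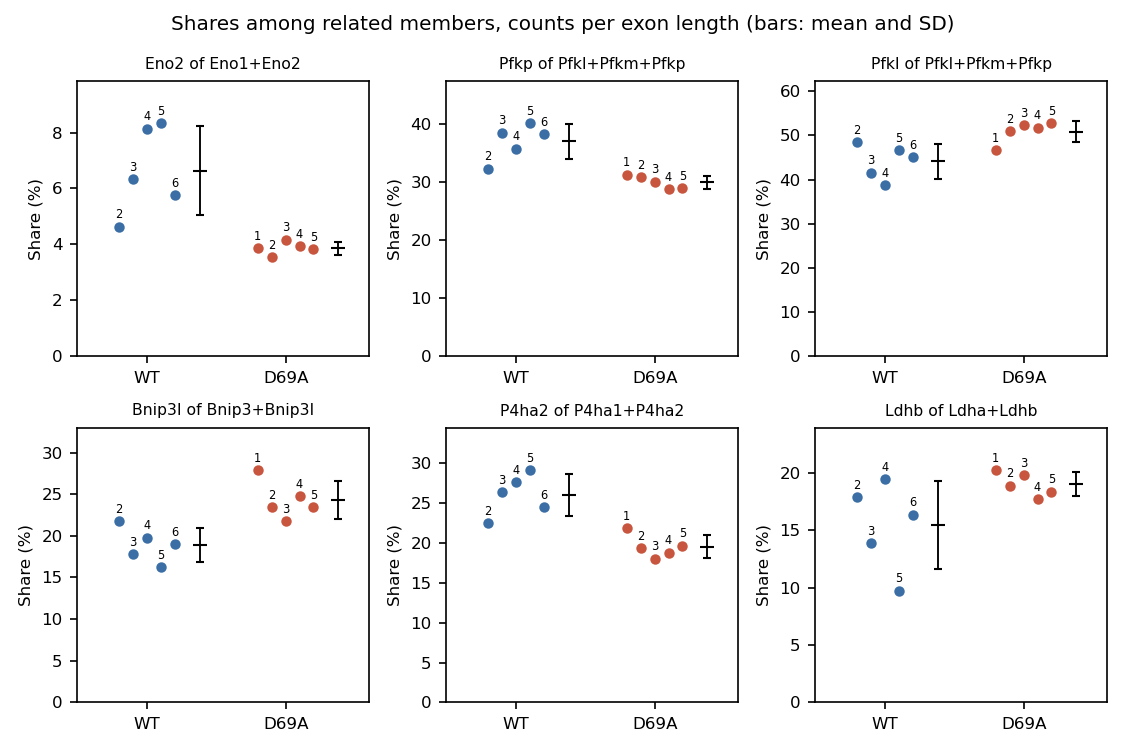
Shares (%) of 6 genes in the sum of the genes named above each panel, from counts per exon length, in each tumor (points, numbered by tumor), with the mean and SD of each group. The Eno2, Pfkp, Bnip3l and P4ha2 shares do not overlap between the groups, while the Pfkl and Ldhb shares do.

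The count of higher genes rested on WT tumor 5 more than on any other tumor. The 11 genes gained without it were Adm, Aldoa, Aldoc, Bnip3l, Hk1, Hk2, Ldha, Pdk1, Pfkl, Pkm and Tpi1, and Eno2 was the 1 lost. Pdk1 reached a log2 fold change of 0.76 (edgeR adjusted p = 0.00798), Ldha 0.37 (adjusted p = 0.0387) and Hk2 0.39 (adjusted p = 0.0468). Car9, Slc2a1 and Egln1 did not pass in this fit either (adjusted p = 0.947, 0.0772 and 0.0547). WT tumor 5 was left out in turn like every other tumor, and nothing in the labels sets it apart.

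Leaving out other single tumors gave 3 to 8 higher and 2 to 4 lower genes. The count of higher genes was 3 without WT tumor 3, 4 or 6 or D69A tumor 5, and that of lower genes was 2 without WT tumor 3 or D69A tumor 2, 4 or 5. Slc16a1, Ldhb, Hif1a, Pfkfb3 and Pfkfb4 passed in all 10 fits that left out 1 tumor and in the other 8 alternatives. Without the 3 tumors highest in muscle markers (WT tumors 3 and 4 and D69A tumor 1) 5 genes were higher (Aldoc, Hif1a, Ldhb, Pfkm and Slc16a1) and 2 lower (Pfkfb3 and Pfkfb4), beside 12.5% and 18.9% of all tested genes. Pgk1, Eno1, Mif, Eno2 and P4ha2 did not pass in that fit of 7 tumors (adjusted p = 0.0583, 0.0773, 0.136, 0.159 and 0.0922).

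**Figure D5:**
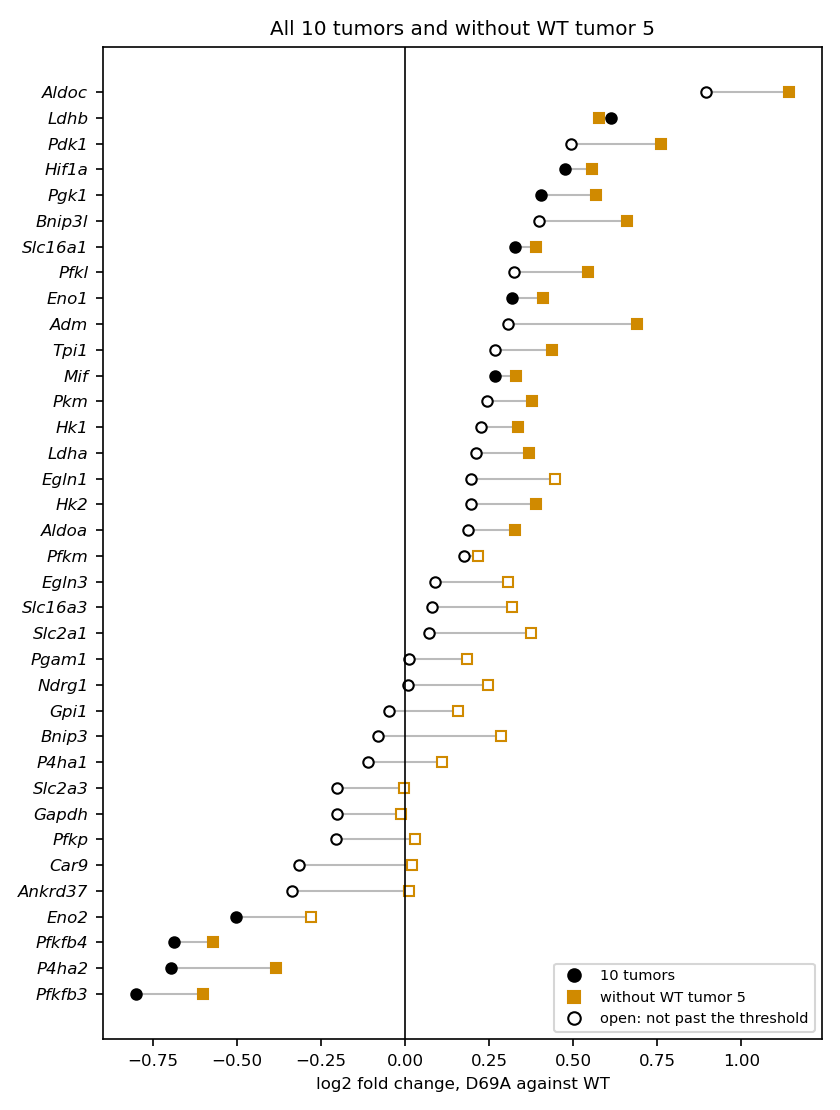
Log2 fold change of D69A against WT for each of the 36 genes with all 10 tumors (circles) and without WT tumor 5 (squares); filled symbols passed an adjusted p of 0.05. Every gene but Ldhb shifts to the right without WT tumor 5, and 11 open circles pair with filled squares.

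The neighbouring parts of the pathway were read from 5 further lists. Of 26 other glycolysis genes 20 were tested, of which 2 were higher and 7 lower in D69A tumors, and the median was -0.21 on the log2 scale. The myeloid hexokinase Hk3 fell from 29.3 ± 10.8 to 6.86 ± 2.67 CPM (SD, n = 5), a log2 fold change of -2.09 (edgeR adjusted p = 0.000766). The monocarboxylate carrier Slc16a7 (MCT2), a gene of low counts, fell from 2.48 ± 1.13 to 0.69 ± 0.33 CPM. Its log2 fold change was -1.84 (edgeR adjusted p = 0.00458), and that of the lysosomal transporter Slc2a6 was -0.50 (adjusted p = 0.00569). Leukocyte and macrophage markers were lower in the same tumors, and their part in the levels of these genes was not tested.

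Among 12 genes that carry pyruvate into mitochondria or control pyruvate dehydrogenase, 6 were called by edgeR, all higher in D69A tumors, and the median was 0.17. The pyruvate dehydrogenase subunit genes Pdhb, Pdha1 and Dlat had log2 fold changes of 0.31, 0.22 and 0.27 (edgeR adjusted p = 0.0036, 0.00606 and 0.00989), and the activating phosphatase gene Pdp2 of 0.51 (adjusted p = 0.00968). Of 13 genes in pathways that branch from glycolysis, 5 were called, all higher, and the median was 0.19. Tkt, the transketolase of the pentose phosphate pathway, averaged 307 ± 34.1 CPM over the WT and 420.1 ± 33.2 CPM over the D69A tumors (log2 fold change 0.45, adjusted p = 0.00191). The glycerol phosphate dehydrogenase gene Gpd1 (0.72), the epimerase gene Rpe (0.19) and Gfpt1, the first enzyme of the hexosamine pathway (0.23), were also called, with groups that overlapped.

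Of 14 regulators of HIF, 13 were tested, 3 higher and 2 lower, with a median of 0.04. Arnt2, a HIF partner, rose from 4.09 ± 1.21 to 10.1 ± 1.28 CPM (SD, n = 5), a log2 fold change of 1.31 (edgeR adjusted p = 0.000907). Epas1 (HIF-2α) and the coactivator Ep300 were higher (0.51 and 0.39), and Cited2, an inhibitor that competes for that coactivator, was lower (-0.77, adjusted p = 0.00335). Among 32 other known HIF targets, 1 was higher and 7 lower, with a median of -0.24. The higher one was Tfrc, the transferrin receptor (0.92, adjusted p = 0.00062). The lower ones included Lox, a collagen crosslinking enzyme (-1.66, adjusted p = 0.00138), Nos2, the inducible nitric oxide synthase (-1.75, adjusted p = 0.00159), and the secreted Angptl4 (-1.42, adjusted p = 0.00482). Across all tested genes the share called was 43.5%, beside which stand 45% of the other glycolysis genes, 50% of the pyruvate entry genes, 38.5% of the branch pathway genes, 38.5% of the HIF regulators and 25% of the other HIF targets. A share near 43.5% says nothing particular about a list, but it joins both directions. Of all tested genes 18.8% were higher and 24.7% lower in D69A tumors. The calls among the pyruvate entry genes (50%) and the branch pathway genes (38.5%) were all higher. Those among the other HIF targets were 1 higher and 7 lower of 32. The genes of a list are not independent, and no list was tested as a set.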

How the data were processed

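Bulk RNA of 10 tumors was sequenced. The deposited table gives unscaled whole-number read counts per Ensembl gene. Per the submitters' processing notes the build was mm10 and RSEM, Bowtie, HISAT and fastp were used; their roles and versions, the annotation, strand and counting rule are not given in the sources available. Since RSEM estimates counts, these may be rounded. Of 17737 genes, 17673 are protein-coding in GENCODE mouse release 21, and 40 had 0 counts in all tumors.

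Low counts were removed with filterByExpr, libraries scaled by TMM, and D69A compared with WT by the quasi-likelihood test of edgeR 4.0.16 (R 4.3.3), taking an adjusted p under 0.05 (Benjamini-Hochberg, 13798 genes). CPM carry the TMM factors. Shares used counts divided by union exon length and a two-sided exact permutation test. A check on simulated counts (200 of 13798 genes changed) gave 3.36% false calls. Alternatives were DESeq2 1.42.0, limma-voom (limma 3.58.1), other scalings, no filter, a replicate block, shares without exon length, and leaving out tumors.

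All 36 genes are named, and from each of 5 other lists up to 4 genes with the smallest p. The genes and lists were chosen with earlier results of these data known. The labels do not say whether each tumor came from its own mouse, so it is unknown whether the spread that p-values measure is a spread between mice. Near-identical copies were annotated genes that align with at least 95% identity over 300 bases.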

Additional observations from a re-analysis of the deposited data

Results flagged for a closer look

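Among 98 groups of 5 values (36 genes and 13 shares in 2 groups), 10 held 1 tumor far from the other 4, which is 10.2%. Chance flags about 1 in 20 such groups, and the genes are correlated, so the flags are not independent.

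WT tumor 5 accounted for 7 of the 10. It was high in Slc2a1 (349 CPM, against 147 to 198 in the other WT tumors), Pgk1 (2564 CPM, against 1554 to 1825), Pdk1 (200.6 CPM, against 88.2 to 114), Egln1 (277 CPM, against 135 to 169.5), Bnip3l (310.3 CPM, against 147 to 191) and Adm (13.9 CPM, against 4.90 to 6.83). It also had the highest Hk2 share of the hexokinase pair (62.9%, against 57.1% to 57.7%).

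WT tumor 3 was low in Slc16a1 (119 CPM, against 147 to 157). D69A tumor 3 was high in P4ha2 (57.1 CPM, against 47.2 to 48.4 in the other D69A tumors). D69A tumor 1 had a high Slc2a3 share of the glucose transporter pair (8.22%, against 5.63% to 6.31%). No cause of these values was tested.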

How the results depend on the processing

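No called value changed direction under any alternative, and 27 of 648 alternative values of single genes changed sign, all of genes not called in either fit. Leaving out 1 tumor at a time gave 3 to 17 higher genes (6 with all tumors) and 2 to 4 lower genes (4 with all), and 0 to 7 differing shares (4 with all). The 0 arose without D69A tumor 2, 3, 4 or 5. There each of the 4 shares had an exact permutation adjusted p of 0.0516, with groups that still did not overlap. The 7 arose without D69A tumor 1. The fit that left out the 3 tumors richest in muscle markers, with fewer samples, gave 5 higher and 2 lower. DESeq2 gave 8 higher and 4 lower, limma-voom and RLE scaling 6 and 4, upper quartile scaling 4 and 4, library size only 5 and 4. The whole table gave 4342 to 6470 calls. Shares without exon length gave 5 differing, with Pfkl added (adjusted p = 0.0413).

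Numbers 2 to 5 occur in both groups, but the deviations of same-numbered tumors correlated at 0.18, -0.42, 0.20 and 0.17, and since 1 of the 4 pairs was below 0.1 the numbers were not taken to pair the tumors. With the replicate block 8 genes were higher and 2 lower, over 5464 calls in the table. Mif, Eno2 and P4ha2 lost their calls (edgeR adjusted p = 0.081, 0.0534 and 0.0547), and Aldoc, Pdk1 and Bnip3l gained one (0.0148, 0.038 and 0.0441); not every tumor correlated best with its own number.

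Depth was at least 25904345 counts in every tumor, so the spread between tumors, more than counting error, limits these values; 3 counts correspond to 0.08 to 0.12 CPM.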

Other observations

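The ratio of Gapdh to 2 other glycolytic genes was lower in every D69A tumor than in any WT tumor, although Gapdh itself did not pass. Gapdh over Pgk1, in CPM, was 0.58, 0.61, 0.55, 0.65 and 0.67 in WT tumors 2 to 6 and 0.36, 0.31, 0.49, 0.34 and 0.50 in D69A tumors 1 to 5. Over Tpi1 it was 0.39 to 0.46 in WT and 0.24 to 0.37 in D69A tumors. These ratios were singled out after their values were seen and were not tested.

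Gapdh also varied against its own near-identical copies. Gapdh over Gm10358 was 10.5 to 12.4 in WT tumors and 12.1 and 11.7 in D69A tumors 3 and 5, but 8.30, 7.94 and 9.13 in D69A tumors 1, 2 and 4. Gapdh over Gm3839 was 22.8 to 26.4 in WT tumors, 26.6 and 25.2 in D69A tumors 3 and 5, and 16.8, 17.4 and 18.1 in D69A tumors 1, 2 and 4. Reads of such copies can be assigned to one another, and the cause of these ratios was not tested.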
